A study of Mus musculus with 9 samples.

Results

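The neutrophil granule genes examined here are 10 of the 52459 genes in the normalized table of this series, chosen by name and not by their values: Mpo, Elane, Prtn3, Ctsg, Ltf, Lcn2, Camp, Ngp, S100a8 and S100a9. All 10 passed the filter on low values, a mean of 10 normalized counts or more. RNAseq was performed on cells that carry the leptin receptor (LepR+), sorted from tibiae and femurs of C57B6 mice after digestion with collagenase, within the fraction without hematopoietic cells. The 3 conditions were young mice aged 12 weeks, middle-aged mice aged 52 weeks, and mice of the same 52 weeks of age that were treated with sodium salicylate, with 3 libraries each, called young, middle-aged and treated below. The dose and duration of salicylate are not given in the labels, which also do not tell if each replicate was a different animal, and the p-values therefore cover no more than the spread between these libraries. A normalized count is the number of reads of a gene divided by 1 size factor per library, and it is not divided by gene length.

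LepR+ cells are stromal cells of the marrow and are not known for making granule proteins. Neutrophils fill their granules in a fixed order as they mature in the marrow. Promyelocytes transcribe the genes of primary (azurophil) granules, here Mpo, Elane, Prtn3 and Ctsg, which are called early. Myelocytes and metamyelocytes transcribe those of specific granules, here Ltf, Lcn2, Camp and Ngp, which are called late. S100a8 and S100a9 encode the subunits of calprotectin, an abundant cytosolic protein of the later stages, and were kept apart from both groups. The transcription factor PU.1 acts on many myeloid genes, and proteins of the C/EBP family act on granule genes of both stages, C/EBPε on the late ones in particular.

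The 10 genes lie on 6 mouse chromosomes (GRCm38, GENCODE release M21). Elane spans 79886247 to 79888215 on the plus strand of chromosome 10 and follows Prtn3 (79874476 to 79883174) by 3073 bp. Camp (109847379 to 109849617, minus strand), Ngp (110419747 to 110423012, plus strand) and Ltf (111019271 to 111042767, plus strand) lie within 1.20 Mb of chromosome 9. S100a8 (90668978 to 90670035, plus strand) and S100a9 (90692632 to 90695721, minus strand) lie 22597 bp apart on chromosome 3. Mpo spans 87793581 to 87804413 on the plus strand of chromosome 11, Ctsg 56099881 to 56102574 on the minus strand of chromosome 14 and Lcn2 32384633 to 32388252 on the minus strand of chromosome 2. The spans of Mpo and Prtn3 overlap genes of the opposite strand (Gm11505 and Plppr3). Overlap of their exons was not examined, and the strand setting of the counting is not given in the sources used here. Whether any reads of these pairs were mixed is therefore not known.

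Because the members were high or low in much the same libraries (below), the 250 bases before each RefSeq start (GRCm38.p6) were searched for motifs of the factors named above, and all 10 members had a promoter in the RefSeq table. The motifs were chosen after the sequences had been seen, and a match is a description of the letters and not a binding site. AGGAAGT, a PU.1-type motif read on both strands (reverse ACTTCCT), was found in 4 of 4 early members, in 0 of 4 late members and in S100a8, against 7.69% of 32851 promoters. TTNNGNAA, a C/EBP-type motif (reverse TTNCNNAA), was found in 0 of 4 early members, in 3 of 4 late members (Ltf, Lcn2 and Ngp) and in both calprotectin genes, against 36.8% of promoters. Matches of both motifs did not overlap in S100a8, which alone of the members held both. TATAAA, also read on both strands, was found in S100a8, 30 bases before its start, and in Ctsg, against 12.4% of promoters. The stretches around the first motif are given here for the 5 members that hold it, 5′ to 3′ on the strand of the gene, with the match in capitals.
Mpo, chr11:87793550-87793578, plus strand, 223 bases before the start: tggagagagagAGGAAGTtgcctttgtcc
Elane, chr10:79886217-79886245, plus strand, 84 bases before the start: gtgtcccagggAGGAAGTagggctgtggc
Prtn3, chr10:79879562-79879590, plus strand, 94 bases before the start: aaactggaaggAGGAAGTgggacccacag
Ctsg, chr14:56102763-56102791, minus strand, 206 bases before the start: agaggaagaaaAGGAAGTagtcacctgtt
S100a8, chr3:90668888-90668916, plus strand, 172 bases before the start: ccaacactcccACTTCCTcagactcagaa

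The stretches around the C/EBP-type motif are given for the late and calprotectin genes that hold it, each with the match farthest from the start where a gene had several. The Lcn2 stretch lies within an exon of a longer GENCODE transcript of Lcn2, and the Prtn3 stretch above lies within the GENCODE gene but in none of its exons, since RefSeq and GENCODE place these starts differently.
Ltf, chr9:111019064-111019093, plus strand, 217 bases before the start: ctgggtggagaTTAAGGAAatcactcggtt
Lcn2, chr2:32387937-32387966, minus strand, 216 bases before the start: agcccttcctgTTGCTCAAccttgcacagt
Ngp, chr9:110419659-110419688, plus strand, 138 bases before the start: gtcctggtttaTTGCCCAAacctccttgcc
S100a8, chr3:90668943-90668972, plus strand, 117 bases before the start: catggacttggTTAGGAAAcagaggctgtg
S100a9, chr3:90695939-90695968, minus strand, 236 bases before the start: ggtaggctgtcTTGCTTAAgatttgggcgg

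The libraries held 9902613 to 20746804 reads. Middle-aged replicate 3 stood apart from the other libraries, in that its size factor was 0.364, only 16178 genes had a read, and 32.6% of its reads came from antibody genes of the B lineage. Antibody genes took 0.107% to 0.479% of the reads in the young, 3.25% to 32.6% in the middle-aged and 1.53% to 8.33% in the treated libraries. Lepr, the gene of the receptor used for the sort, had 78029 to 102235 normalized counts in the young, 14455 to 57603 in the middle-aged and 59657 to 75958 in the treated libraries. In bulk samples such as these, fewer cells of a type and less RNA per cell cannot be told apart, and this holds for the granule genes and for the stromal genes alike.

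Together the 10 genes took 0.327%, 0.353% and 0.564% of all reads in the young libraries, 1.23%, 1.13% and 0.983% in the middle-aged and 1.48%, 1.31% and 0.717% in the treated libraries. Calprotectin made up 67.7% to 73.2% of their summed normalized counts in every library. The 4 early genes made up 3.38% to 3.83% of the sum in the young, 4.81% to 6.77% in the middle-aged and 4.87% to 7.58% in the treated libraries, so that the young libraries lay below all others. Per kilobase of the longest transcript, the order of the mean levels over all 9 libraries was S100a9, S100a8, Ngp, Camp, Lcn2, Mpo, Ltf, Elane, Prtn3 and Ctsg, from 93103 normalized counts per kb for S100a9 to 347 for Ctsg. Some neighbours in this order could not be told apart: Camp exceeded Lcn2 in 4 of 9 libraries, Mpo exceeded Ltf in 6 of 9 and Ltf exceeded Elane in 5 of 9. S100a9 was above S100a8 in 8 of 9 libraries, by only 0.09 on the log2 scale (SD 0.09), whereas each of the other pairs of neighbours kept its order in 9 of 9 libraries.

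**Figure D1:**
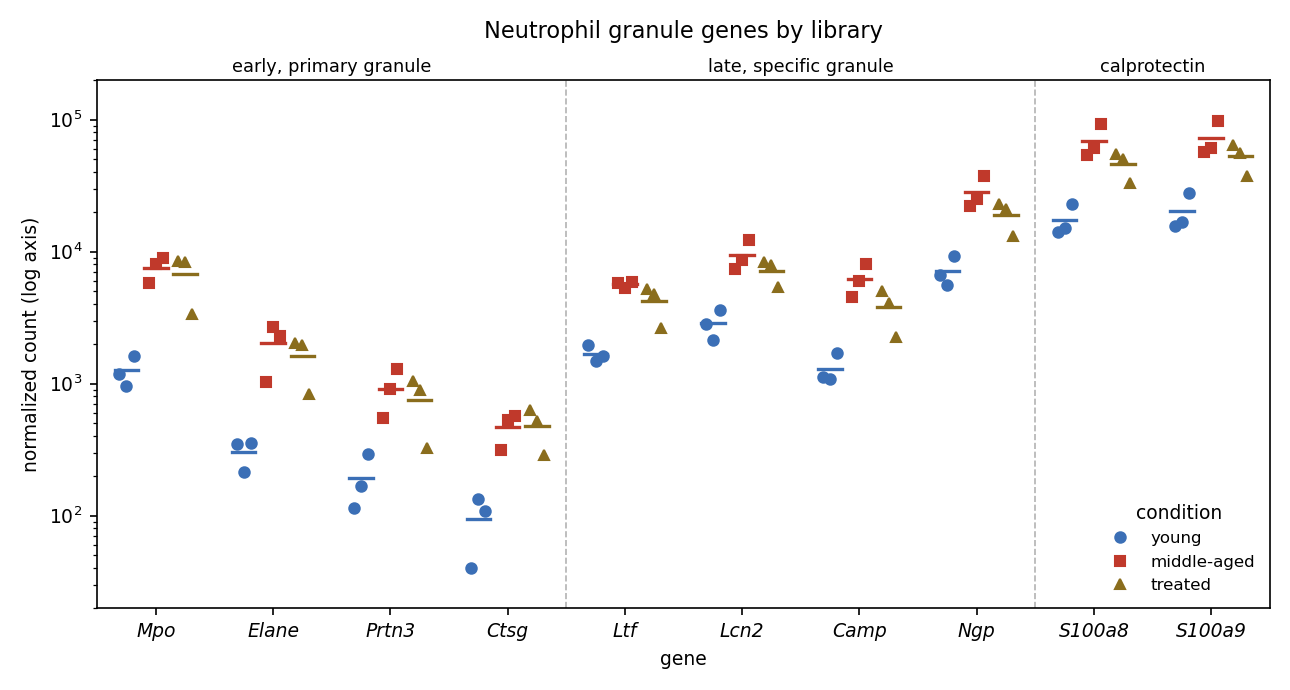
Normalized counts (log axis) of the 10 neutrophil granule genes in each library, with points for the 3 libraries of each condition and lines for their means. In all 10 genes every young library lies below every middle-aged and every treated library on this scale, and the third treated library is the lowest of its condition; relative to pan-leukocyte markers the mean of the late genes does not keep this order.

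The first comparison asked how the LepR+ fraction differed between middle-aged and young mice. All 10 granule genes were higher in the middle-aged libraries, by 3.27-fold (Lcn2) to 6.24-fold (Elane) with the size factors of the authors. With each of 4 other scalings they were higher too, by 1.23 (total count scaling) to 4.08 (scaling to stromal markers) on the log2 scale, but with values scaled to pan-leukocyte markers Ltf, Lcn2, Ngp and S100a9 were slightly lower, with log2 fold changes of -0.26 to -0.0048. Those markers themselves differed by 1.16 (Coro1a) to 3.43 (Cd52) on the log2 scale before this scaling, and other sets of leukocyte markers were not tried. With limma and an adjusted p under 0.05, 10 of 10 members were called higher, against 2.14% of the 14998 genes tested. The lowest middle-aged library lay above the highest young library in 10 of 10 members, against 12.4% of the genes tested. The median log2 fold change was 2.51 for the early genes, 1.86 for the late genes and 1.92 for calprotectin, against -0.08 over all genes tested.

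Among the early genes, Mpo encodes myeloperoxidase, the enzyme that makes hypochlorous acid from hydrogen peroxide. Mpo had 1181, 967 and 1631 normalized counts in the young libraries, 5756, 8000 and 8943 in the middle-aged and 8449, 8375 and 3369 in the treated libraries. The middle-aged level exceeded the young level by 2.59 on the log2 scale (standard error, SE, 0.37, limma adjusted p = 0.0133), or 6.04-fold with a 95% interval of 3.45 to 10.6.
Elane encodes neutrophil elastase, a serine protease. Its values were 349, 214 and 353 normalized counts in the young, 1036, 2695 and 2313 in the middle-aged and 2031, 1960 and 839 in the treated libraries. The difference between middle-aged and young was 2.64 on the log2 scale (SE 0.43, limma adjusted p = 0.0178), the largest of the members, and the first middle-aged and the third treated library were the lowest of their conditions.
Prtn3, which encodes proteinase 3, another serine protease and a neighbour of Elane, had 115, 168 and 293 normalized counts in the young, 545, 904 and 1296 in the middle-aged and 1038, 900 and 328 in the treated libraries. Its difference of 2.27 between middle-aged and young (log2, SE 0.50, limma adjusted p = 0.0402) was the closest of the members to the threshold. Here the third treated library lay just above the third young library.
Ctsg, the gene of cathepsin G, was the lowest of the members, with 40.0, 133 and 109 normalized counts in the young, 315, 527 and 567 in the middle-aged and 636, 518 and 287 in the treated libraries. It was higher in middle-aged than in young by 2.43 on the log2 scale (SE 0.48, limma adjusted p = 0.0298). The lowest young value came from 45 reads.

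Among the late genes, Ltf encodes lactoferrin, the iron-binding protein that defines specific granules. It had 1954, 1496 and 1621 normalized counts in the young, 5809, 5307 and 5909 in the middle-aged and 5245, 4788 and 2621 in the treated libraries. The 3 middle-aged libraries lay close together, and Ltf was higher there than in young by 1.75 on the log2 scale (SE 0.27, limma adjusted p = 0.0172).
Lcn2 encodes lipocalin 2, which binds bacterial siderophores and is also made by other cells such as adipocytes. It had 2818, 2143 and 3638 normalized counts in the young, 7347, 8649 and 12150 in the middle-aged and 8279, 7912 and 5376 in the treated libraries. Its difference of 1.71 between middle-aged and young was the smallest of the members (log2, SE 0.29, limma adjusted p = 0.0180).
Camp and Ngp are related genes of the cathelicidin family, of which Camp encodes an antimicrobial peptide. Camp had 1114, 1076 and 1701 normalized counts in the young, 4519, 6018 and 8123 in the middle-aged and 5055, 4046 and 2274 in the treated libraries, and it differed the most of the late genes between middle-aged and young, by 2.25 (log2, SE 0.34, limma adjusted p = 0.0151). Ngp had 6635, 5583 and 9292 normalized counts in the young, 22230, 24999 and 37372 in the middle-aged and 22921, 20941 and 13128 in the treated libraries, a difference of 1.97 between middle-aged and young (log2, SE 0.33, limma adjusted p = 0.0178).
Camp stood at 0.168 to 0.193 of the Ngp count in the young, 0.203 to 0.241 in the middle-aged and 0.173 to 0.221 in the treated libraries, so their ratio varied little next to the levels.

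Both calprotectin genes were among the highest of all members. S100a8 had 13999, 15220 and 22867 normalized counts in the young, 54186, 61202 and 92713 in the middle-aged and 55379, 49908 and 33318 in the treated libraries. The values of S100a9 were 15771, 16814 and 27937 in the young, 57282, 60858 and 98445 in the middle-aged and 64483, 55752 and 37543 in the treated libraries. Middle-aged replicate 3 had the highest count of both genes, and young replicate 3 the highest of its condition. The differences between middle-aged and young were 1.99 for S100a8 (log2, SE 0.37, limma adjusted p = 0.0243) and 1.84 for S100a9 (SE 0.39, adjusted p = 0.0372).

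Whether the members passed the threshold depended on single libraries, while their median log2 fold change stayed at 1.87 to 2.34 when each library was left out. The count of 10 members called higher in middle-aged than in young was 0 without young replicate 1, young replicate 2 or middle-aged replicate 2, 4 without young replicate 3 and 6 without treated replicate 1 or 2, while it stayed at 10 without middle-aged replicate 3, with a median log2 fold change of 1.87. It was also 0 with values scaled to the total or to the pan-leukocyte markers and in limma without the trend, but 10 in edgeR and in DESeq2 on recovered reads. The number called higher among the 14998 genes tested moved as well. It was 321 with all libraries, 42, 41 and 57 without young replicates 1, 2 and 3, and 23 without middle-aged replicate 2. Without treated replicates 1 and 2 it was 136 and 144, and without middle-aged replicate 3 it was 368. Total count scaling gave 54, pan-leukocyte scaling 169 and limma without the trend 52.

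**Figure D2:**
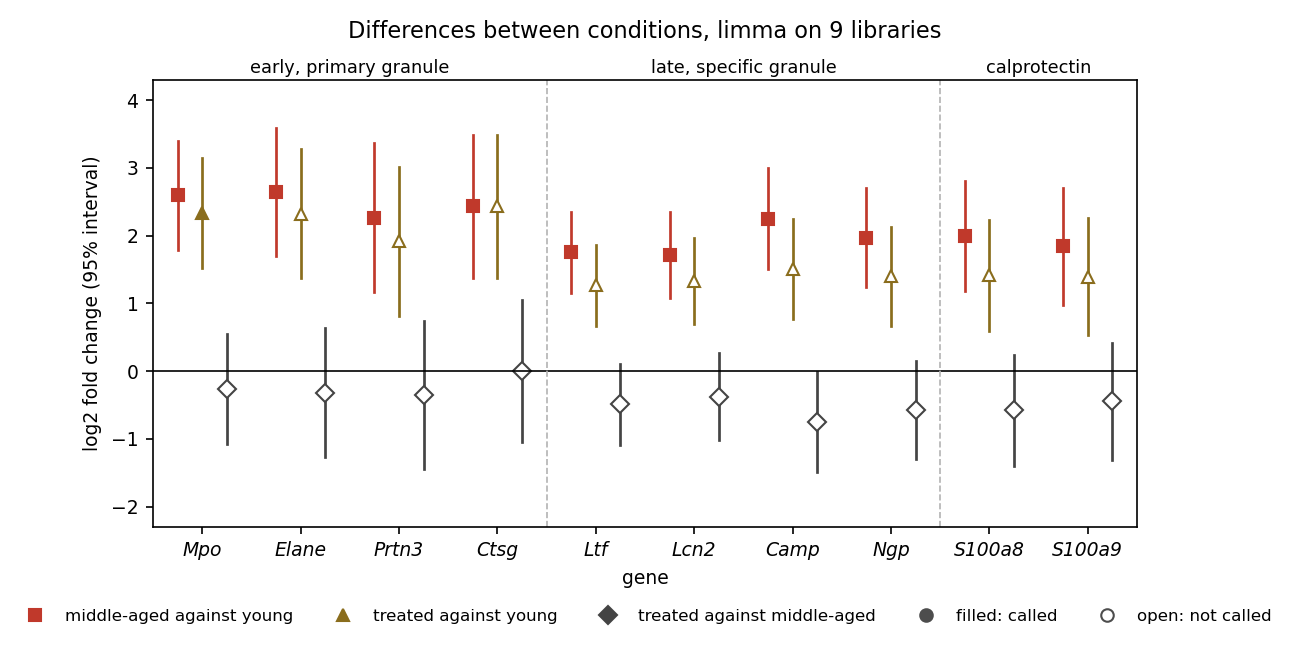
Log2 fold changes of the 10 genes with 95% intervals from limma, for middle-aged against young (squares), treated against young (triangles) and treated against middle-aged (diamonds), filled where the adjusted p was under 0.05. All squares are filled and lie at 1.71 to 2.64, the triangle of Mpo alone is filled, and all diamonds are open and lie at -0.75 to 0.00; scaled to pan-leukocyte markers, Ltf, Lcn2, Ngp and S100a9 lay below 0 for middle-aged against young.

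The second comparison asked whether salicylate changed the middle-aged fraction. No member was called different between treated and middle-aged libraries, and neither was any of the 14998 genes in limma (0% higher and 0% lower). At an unadjusted p under 0.05 there were 1464 genes, of which 1 was a member. On recovered reads, edgeR and DESeq2 called 0 members as well. Over all genes, edgeR called 0 of 14998 higher and 0 lower, and DESeq2 called 20 of 52459 higher and 24 lower. The log2 fold changes ran from -0.75 for Camp to 0.00 for Ctsg, with adjusted p = 0.496 to 1 from limma, and their median was -0.41 against 0.09 over all genes.
For Camp, the member with an unadjusted p under 0.05 in limma, the 95% interval of the fold was 0.356 to 0.994, and for Mpo it was 0.476 to 1.46, both before adjustment over genes. The treated libraries were all below the middle-aged ones for Ltf alone of the 10 members, against 5.9% of the genes tested. Treated replicate 3 was the lowest treated library in every member, with 3369 against 8375 and 8449 normalized counts of Mpo, and antibody genes took 8.33% of its reads against 1.53% and 1.55% in replicates 1 and 2. Without this library the median log2 fold change of the early genes was 0.17 and that of the late genes -0.25, in place of -0.29 and -0.53. The median over all genes tested was then 0.12. With values scaled to the total the median of all members was 0.10, against 0.58 over all genes tested.

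The third comparison set treated middle-aged mice against young mice and so shared the young libraries with the first. All 10 members were higher in the treated libraries without overlap, against 8.99% of the genes tested, although 6 of them (Ltf, Lcn2, Camp, Ngp, S100a8 and S100a9) lay slightly below young when scaled to pan-leukocyte markers. Mpo alone was called, at 2.33 on the log2 scale (SE 0.37, limma adjusted p = 0.0396), against 0.207% of all genes called higher. The early genes differed by 1.91 (Prtn3) to 2.43 (Ctsg) and the late genes by 1.26 (Ltf) to 1.50 (Camp) on the log2 scale, with adjusted p = 0.0803 to 0.285 from limma for the 9 members not called. In DESeq2 on recovered reads, and without middle-aged replicate 3, the count was 10 of 10 members, and it was 9 when only these 2 conditions were fitted and 2 without middle-aged replicate 1 or treated replicate 3. It was 0 in edgeR, and also without young replicate 1, 2 or 3, without middle-aged replicate 2 and without treated replicate 1 or 2. Over all genes, DESeq2 called 263 of 52459 higher. Of the 14998 genes tested in the other fits, 31 were called higher with all libraries, 232 without middle-aged replicate 3 and 136 with only these 2 conditions. The number was 33 without middle-aged replicate 1 and 17 without treated replicate 3. It was 2 in edgeR and 4 to 18 in the fits without a library that called 0 members.

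Early and late genes were then compared within each library, where the size factor has little effect. The mean log2 level of the 4 early genes minus that of the 4 late genes was -3.59, -3.00 and -3.07 in the young libraries, -3.01, -2.35 and -2.62 in the middle-aged and -2.20, -2.18 and -2.66 in the treated libraries. The early genes thus stood highest against the late ones in treated replicates 1 and 2 and lowest in young replicate 1, and young and middle-aged libraries overlapped slightly. The means were -3.22 ± 0.32 in the young, -2.66 ± 0.33 in the middle-aged and -2.34 ± 0.27 in the treated libraries (SD, n = 3 libraries), and no test was made of this score over the members.
The balance was therefore 0.56 higher in the middle-aged than in the young libraries and 0.88 higher in treated than in young. The difference of 0.31 between treated and middle-aged was 0.14 without middle-aged replicate 1 and 0.47 without treated replicate 3 or middle-aged replicate 2.

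A single pair of genes, those that define both granule types, was tested across the 3 conditions, although this pair, like the second one, was chosen with earlier results of these data known. The ratio of Mpo to Ltf was 0.605, 0.647 and 1.01 in the young, 0.991, 1.51 and 1.51 in the middle-aged and 1.61, 1.75 and 1.29 in the treated libraries. Mpo was thus below Ltf in young replicates 1 and 2, close to it in young replicate 3 and middle-aged replicate 1, and above it in the other libraries. The ratio differed among the conditions (exact permutation test of the F statistic over all 1680 assignments of the libraries, p = 0.0429, adjusted over 2 ratios 0.0429; the smallest possible p is 0.00357), with log2 means of -0.45, 0.39 and 0.62. This call ended when any single library other than young replicate 3 was left out (adjusted p = 0.0286 to 0.114 in the exact permutation test).
The second pair were the subunits of calprotectin. The S100a8 to S100a9 ratio was 0.888, 0.905 and 0.819 in the young, 0.946, 1.01 and 0.942 in the middle-aged and 0.859, 0.895 and 0.887 in the treated libraries, so that the middle-aged libraries lay above all others. It differed among the conditions by a small amount (exact permutation test, p = 0.0321, adjusted over 2 ratios 0.0429), with log2 means of -0.20, -0.05 and -0.18. That call held without young replicate 2 or 3 and ended without any other single library (adjusted p = 0.0286 to 0.139 in the exact permutation test).

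**Figure D3:**
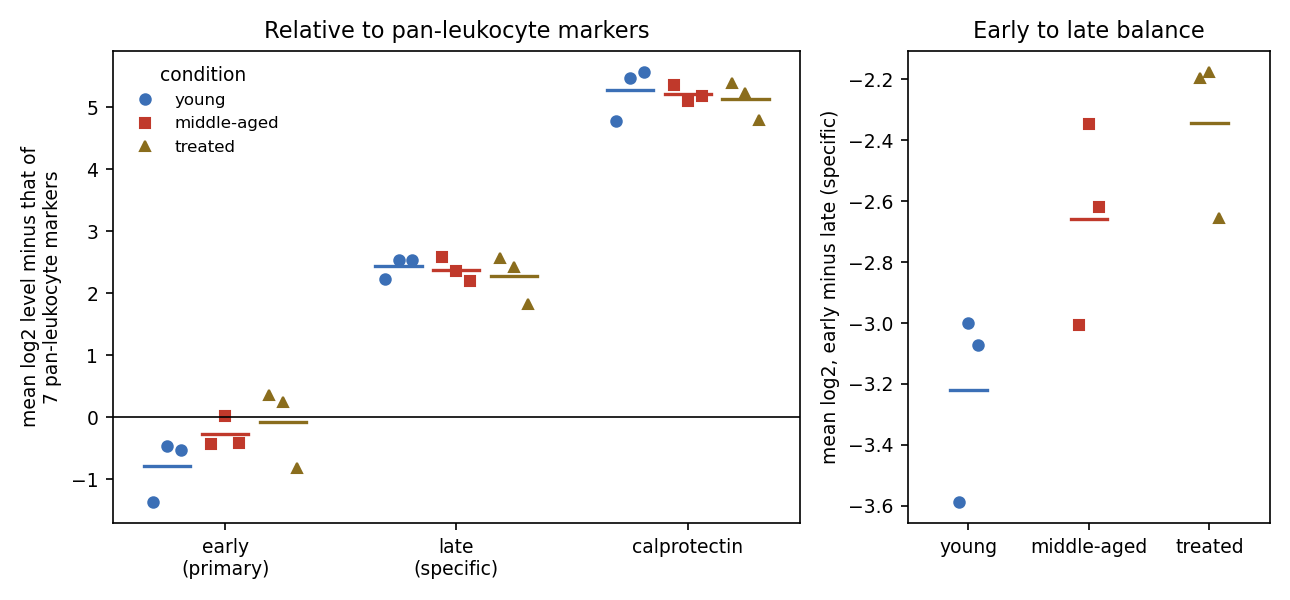
Mean log2 level of the early, late and calprotectin genes minus the mean of 7 pan-leukocyte markers (left), and of the early minus the late genes (right), per library, with lines for the means of 3 libraries. The late genes keep means of 2.43, 2.38 and 2.27 in the young, middle-aged and treated libraries, while the early genes move from -0.78 to -0.28 and -0.07, with treated replicate 3 at -0.82.

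Markers that all leukocytes share moved with the granule genes. All 7 pan-leukocyte markers were called higher in the middle-aged than in the young libraries, among them Lcp1, an actin-bundling protein (2.09 on the log2 scale, SE 0.26, limma adjusted p = 0.00732), Cd53, Cd52 and the phosphatase Ptprc (CD45), and their summed level was 2928 to 4415 normalized counts in the young, 11432 to 26075 in the middle-aged and 10436 to 11928 in the treated libraries. Relative to these markers, the late genes stood at 2.43 ± 0.18 in the young, 2.38 ± 0.19 in the middle-aged and 2.27 ± 0.39 in the treated libraries (mean log2 difference, SD, n = 3 libraries), and the early genes at -0.78 ± 0.50, -0.28 ± 0.25 and -0.07 ± 0.65. The shift of the early genes was about the size of this spread. Among the markers, Cd52 had 8087 normalized counts in middle-aged replicate 3 against 1087 and 1655 in replicates 1 and 2, and Cd53 had 6676 against 2017 and 2465. In treated replicate 3, Cd52 had 2082 against 785 and 689, while Cd53 had 1928 against 1851 and 1853. Both libraries had the highest antibody share of their condition, and the part of B lineage cells in these markers was not tested. With the values scaled to the 7 markers, the median log2 fold change of all genes was -2.00, and that of the early members was 0.54 and of the late members -0.11 between middle-aged and young libraries, with 0 members called.
The stromal markers went the other way. All 8 LepR+ stromal markers, such as Cxcl12, Lepr and Kitl, had negative log2 fold changes between middle-aged and young (median -1.43), but none was called, and their summed level was 601971 to 746092 normalized counts in the young, 102555 to 404027 in the middle-aged and 419540 to 538300 in the treated libraries. Scaled to these markers, the members differed by a median of 3.57 against 1.32 over all genes. Of other cell types, 4 of 9 monocyte and macrophage markers (Mrc1, C1qb, C1qc and Ly6c2) and 2 of 7 B lineage markers (Ighm and Igkc) were called higher in the middle-aged libraries, and the erythroid markers had 0 of 5 called. The T and NK cell markers summed to 9.77 to 44.9 normalized counts in the young, 13.8 to 146 in the middle-aged and 40.1 to 69.0 in the treated libraries, mostly from Cd4 in the young, where Cd3d and Klrb1c had no read. The summed level of the monocyte and macrophage markers was 782 to 1328 normalized counts in the young, 4640 to 72137 in the middle-aged and 3654 to 9516 in the treated libraries. Most of this sum in the middle-aged libraries was Ly6c2 alone, with 2931, 17511 and 70109 normalized counts, so it does not describe the monocyte and macrophage markers as a set. The part of these cell types in the differences of the granule genes was not tested.

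Other genes of each granule type were described from lists that were also chosen with earlier results known. Of 8 other genes of primary granules and promyelocytes, 4 were called higher in the middle-aged than in the young libraries, with a median log2 fold change of 1.80. They were the lysozyme gene Lyz2 (4741 to 7177 normalized counts in young and 14381 to 17175 in middle-aged), Srgn, which encodes the proteoglycan serglycin of granules (760 to 1768 and 3215 to 7540), Ms4a3 and Nkg7. The lysosomal genes Cd63 and Ctsc, which most cells express, had log2 fold changes of -0.83 and -0.05 and were not called.
Of 10 other genes of specific granules, 6 were called higher in the middle-aged libraries (Chil3, Cybb, Cd177, Pglyrp1, Itgb2l and Olfm4), with a median of 1.73 over the list. The medians of the other primary and other specific genes, 1.80 and 1.73, thus lay closer together than those of the early and late members, 2.51 and 1.86. Chil3 encodes a chitinase-like protein and Cybb the large subunit of the NADPH oxidase, and they differed by 2.05 (adjusted p = 0.0233) and 1.71 (adjusted p = 0.0172, both from limma) on the log2 scale. Hp, the gene of haptoglobin, which liver and fat cells also make, stood apart from the list with 11607 to 14452 normalized counts in young and 1838 to 6966 in the middle-aged libraries (adjusted p = 0.0528 from limma). Olfm4 was the only gene of the list called between treated and young libraries, at 1.95 (adjusted p = 0.0486 from limma), and it was chosen for mention after its values were seen.
Gelatinase granules are filled last, in the most mature cells. The genes of these granules and of mature neutrophils had a median log2 fold change of 1.19 between middle-aged and young libraries over 11 genes, all above 0, and 2 were called, the gelatinase gene Mmp9 (1.11, adjusted p = 0.0364 from limma) and Adam8. Retnlg, a resistin-like gene and the most abundant of the list, had 894 to 1722 normalized counts in the young, 2276 to 2910 in the middle-aged and 2163 to 3464 in the treated libraries, and its young libraries lay below all others although it was not called (adjusted p = 0.0583). The chemokine receptor gene Cxcr2, at 241 to 294 normalized counts in the young, 337 to 888 in the middle-aged and 339 to 652 in the treated libraries, was also not called. Scaled to the pan-leukocyte markers, Mmp9, Lyz2 and Cybb, like Ltf, Lcn2 and Ngp but unlike Camp among the late members, fell on the other side, at -0.86, -0.44 and -0.27 between middle-aged and young libraries.

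**Figure D4:**
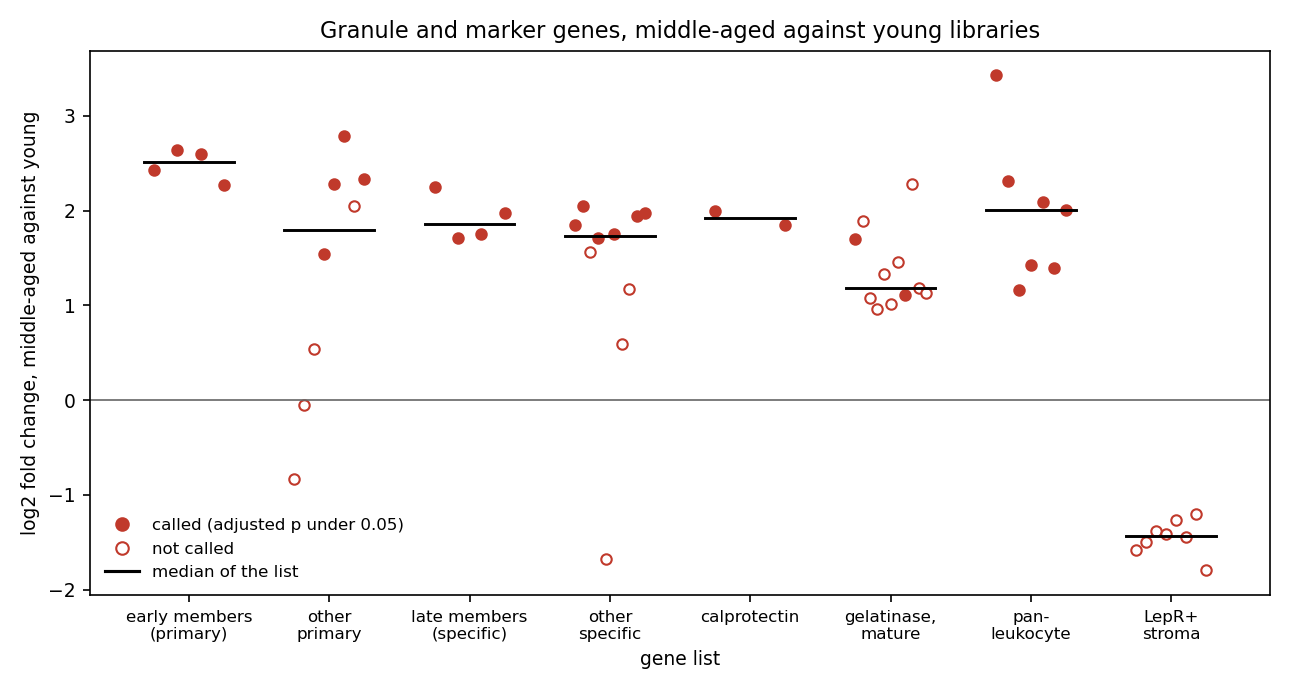
Log2 fold change between middle-aged and young libraries of each tested gene in 8 lists, with filled points for genes called at an adjusted p under 0.05 and a line for the median of each list. The medians are 2.51 for the early members, 1.86 for the late members, 1.92 for calprotectin and 1.19 for gelatinase and mature neutrophil genes. Other primary genes have 1.80, other specific genes 1.73 and pan-leukocyte markers 2.01, and all 8 stromal markers lie below 0. Scaled to pan-leukocyte markers the median of the late members was -0.11.

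Transcription factors of granulocyte formation did not all move in the same direction. Of 10 factors, Spi1, Gfi1 and Myb were called higher in the middle-aged than in the young libraries, and Spi1 and Gfi1 were chosen for mention after their values were seen. Spi1, which encodes PU.1, had 36.4, 65.8 and 107 normalized counts in the young, 284, 471 and 404 in the middle-aged and 373, 355 and 383 in the treated libraries. It was higher by 2.55 in middle-aged (adjusted p = 0.0172) and by 2.52 in the treated libraries (adjusted p = 0.0396, both on the log2 scale and from limma), so it stayed high in the treated library in which the granule genes were lowest.
Myb, a factor of progenitors, had 212, 288 and 137 normalized counts in the young, 626, 1011 and 1007 in the middle-aged and 696, 687 and 445 in the treated libraries. Gfi1, a repressor needed for neutrophil formation, rested on 2, 7 and 2 reads in the young libraries against 27, 29 and 38 in the middle-aged and 92, 107 and 35 in the treated libraries. Cebpe, which encodes C/EBPε, had 24.9, 14.4 and 1.12 normalized counts in the young, 79.7, 28.9 and 146 in the middle-aged and 74.9, 105 and 86.3 in the treated libraries and was not called (adjusted p = 0.109 from limma), and it too was chosen for mention after its values were seen.
Runx1, Cebpd, Cebpa and Cebpb went the other way without a call, with log2 fold changes of -1.23, -1.24, -1.49 and -0.58 between middle-aged and young. Cebpa, the factor of early granulocyte commitment and also of fat cells, had 1470, 1163 and 1331 normalized counts in the young, 774, 576 and 231 in the middle-aged and 837, 831 and 942 in the treated libraries. Its mean was highest in the young and lowest in the middle-aged libraries, an order also seen in the summed stromal markers above, and a link was not tested. Runx1, known from blood formation and bone, had 9868 to 14299 normalized counts in the young libraries. The remaining factors, Irf8 and Klf5, had log2 fold changes of 0.69 and 0.91 without a call. Irf8 had 74.8 to 189 normalized counts in the young and 360, 383 and 66.0 in the middle-aged libraries, which overlapped.

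**Figure D5:**
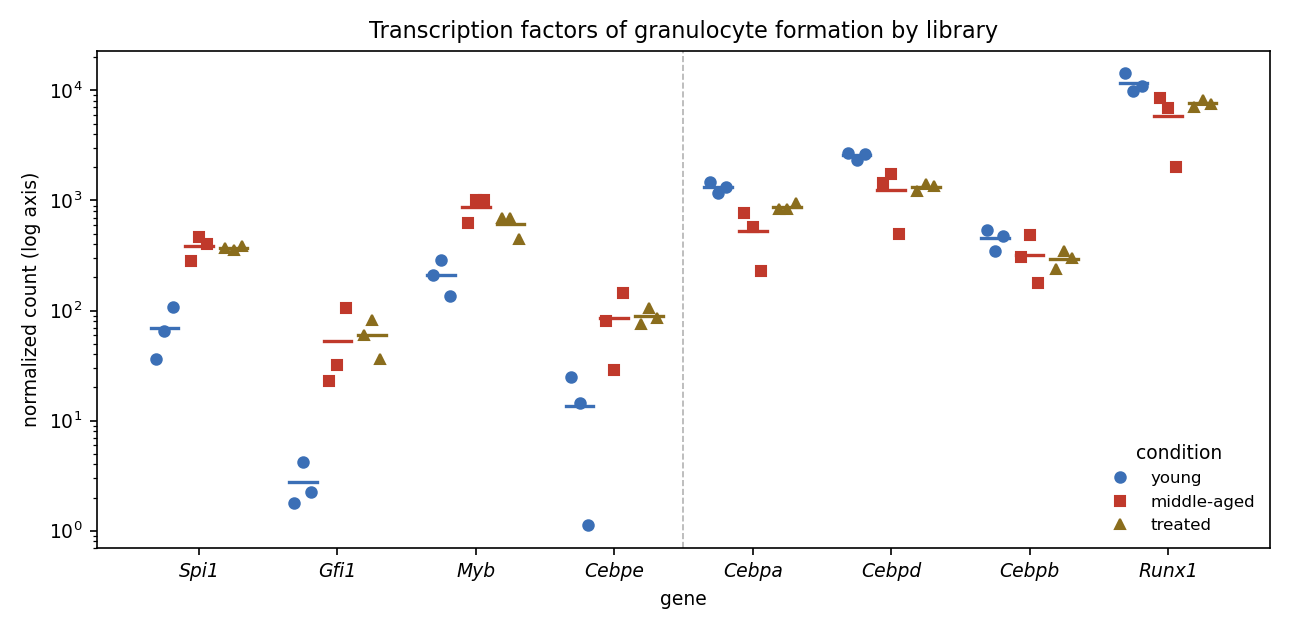
Normalized counts (log axis) of 8 transcription factors of granulocyte formation in each library, with lines for the means of 3 libraries per condition. Irf8 and Klf5 of the same list are not shown. Spi1, Gfi1, Myb and Cebpe (left of the dashed line) lie lowest in the young libraries, with Spi1 at 36.4 to 107, whereas the means of Cebpa, Cebpd, Cebpb and Runx1 are highest in the young libraries, none of these 4 being called.

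The genes whose profiles over the 9 libraries were closest to those of the members were found by the root mean square difference of centred log2 values, among 10709 genes whose mean was 50 normalized counts or more. Closest to the mean early profile were Serpinb1a (0.22), an inhibitor of neutrophil serine proteases, Gca (0.23), Clec12a (0.26), the Fc receptor gene Fcgr3 (0.28) and Fcnb (0.28), which encodes ficolin B, against a median of 1.32 over all candidates. They lay as close as members themselves, of which Mpo was at 0.18 and Ctsg at 0.36. Serpinb1a had means of 164 normalized counts in the young, 786 in the middle-aged and 649 in the treated libraries.
Closest to the late profile were Chil3 (0.15), Rac2 (0.17), a GTPase of blood cells, Lcp1 (0.18), Arhgdib (0.20) and Cd177 (0.21), a surface protein of neutrophils, against a median of 0.999. Rac2 and Lcp1 are also pan-leukocyte markers of the list above.

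Eosinophils, basophils and mast cells carry granule genes of their own, which were compared with those of neutrophils. Of 8 such genes, Prg2, the gene of the major basic protein of eosinophil granules, was called higher than in young in both middle-aged (2.77 on the log2 scale, adjusted p = 0.0178) and treated libraries (2.97, adjusted p = 0.0307, both from limma). It had 40.7 to 78.6 normalized counts in the young, 333 to 533 in the middle-aged and 273 to 873 in the treated libraries. Epx, the eosinophil peroxidase gene and the counterpart of Mpo, had 0.600 to 62.9 normalized counts in the young, 60.5 to 452 in the middle-aged and 151 to 470 in the treated libraries and was not called. The basophil genes Mcpt8 and Prss34 had no read in 1 of the middle-aged libraries and were not called in any comparison.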

How the data were processed

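The authors used bcl2fastq on the sequencer output, STAR for alignment to mm10 (GRCm38), featureCounts for read counts per gene and DESeq2 for normalization. Versions, gene annotation and strand setting are not given in the sources used here. The deposited signal values are these normalized counts with 2 decimals. Whole reads were recovered for 99.995% to 100% of the values of a library, within 0.1 read. The depth sets the limit that a count of 0 allows, 3 reads, at 1.79 to 8.25 normalized counts, for counting error only.

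Conditions were compared with limma 3.58.1 (R 4.3.3) after adding a pseudocount of 1 and taking log2, with trended empirical Bayes moderation, for the 14998 genes averaging 10 or more. Fold changes are on this scale, the 9 libraries entered a single fit, and a call required a Benjamini-Hochberg adjusted p under 0.05. Because the values are normalized, edgeR 4.0.16 and DESeq2 1.42.0 on recovered reads served as alternatives. In middle-aged against young libraries, edgeR called 292 of 14998 genes higher and 51 lower. DESeq2, run without the filter on 52459 genes, called 1013 higher and 646 lower. Other alternatives were pseudocounts of 0.5 and 5, filters, scalings, moderation, a replicate block, fits of 2 conditions and leaving out each library. The ratios of gene pairs were tested by exact permutation.

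The text names all members, up to 4 genes per list with the highest means, and the 5 nearest profiles. Other genes were named after their values were seen. Members, lists and tests were chosen with earlier results of these data known. GENCODE release M21 gave positions and lengths, and RefSeq (GRCm38.p6) the promoter sequences. The software was Python 3.11.15 with matplotlib 3.10.9, scipy 1.17.1, numpy 2.4.6 and pandas 2.3.3.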

Additional observations from a re-analysis of the deposited data

How the results depend on the processing

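The 10 members were called higher by limma in the middle-aged than in the young libraries. This count was 0 with total count scaling, with scaling to the pan-leukocyte markers and without the empirical Bayes trend, 4 with only the 2 conditions fitted, and 0 to 10 when single libraries were left out. Over all genes, 321 were called higher in the fit of all libraries, 42 with only the 2 conditions fitted and 23 to 878 when single libraries were left out. Total count scaling gave 54, pan-leukocyte scaling 169 and no trend 52. In treated against middle-aged libraries the count of members called was 0 under every alternative run. Over all genes there were also no calls there, apart from 1 higher without the trend and 20 higher and 24 lower in DESeq2. In treated against young libraries the count of 1 was 0 with no filter, total count scaling, stromal marker scaling, pan-leukocyte scaling, no trend, a replicate block and edgeR, but 9 with only the 2 conditions fitted, 10 in DESeq2, and 0 to 10 when single libraries were left out. Of the 14998 genes tested, 31 were called higher there with all libraries and 136 with only the 2 conditions fitted, and DESeq2 called 263 of 52459. With no filter the number called higher was 16 of 30021. Total count scaling gave 16, stromal marker scaling 14, pan-leukocyte scaling 69, no trend 12, the replicate block 26 and edgeR 2. Leaving out single libraries gave 4 to 232.

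The labels do not say that replicate numbers pair the libraries. In their deviations from the condition means, same-numbered libraries correlated at -0.01 to 0.12 and differently numbered ones at -0.10 to 0.05. These weak values do not settle whether the libraries were paired. With the replicate block, the count of members called was 8, 0 and 0 in middle-aged against young, treated against middle-aged and treated against young libraries, against 243, 0 and 26 of all genes called higher. Both pair ratios no longer passed (adjusted p = 0.111 from the exact permutation test within replicate numbers, at log2 differences of 0.84 for Mpo to Ltf and 0.15 for S100a8 to S100a9 between middle-aged and young). Leaving out single libraries gave 0.70 to 1.07 for Mpo to Ltf and 0.10 to 0.18 for S100a8 to S100a9.

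Of 720 alternative values of the members, 28 turned their direction. Scaled to the pan-leukocyte markers, the log2 fold change between middle-aged and young was -0.22 for Ltf, -0.26 for Lcn2, -0.0048 for Ngp and -0.13 for S100a9, and also -0.44 for Lyz2, -0.27 for Cybb, -0.86 for Mmp9 and -0.58 for Ptprc. Between treated and young it was -0.27 for Ltf, -0.20 for Lcn2, -0.033 for Camp, -0.14 for Ngp, -0.12 for S100a8 and -0.14 for S100a9, and between treated and middle-aged 0.18 for Mpo, 0.12 for Elane, 0.086 for Prtn3 and 0.062 for Lcn2. The medians over all genes tested with this scaling were -2.00, -1.52 and 0.50 in these comparisons, in the same order. With total count scaling the last comparison gave 0.25 for Mpo, 0.20 for Elane, 0.16 for Prtn3, 0.025 for Ltf, 0.14 for Lcn2 and 0.066 for S100a9. All of these lay below the median over all genes tested, which was 0.58 with total count scaling. The direction between treated and middle-aged turned without treated replicate 3 for Mpo (0.18), Elane (0.10) and Prtn3 (0.17), and leaving out single libraries gave -0.49 to 0.18, -0.74 to 0.10 and -0.68 to 0.17 for these genes. Ctsg, at 0.00 in that comparison, was at -0.022 with upper quartile scaling, -0.94 with stromal scaling, and -0.26 to 0.33 when single libraries were left out, below 0 without middle-aged replicate 1 or treated replicate 1 or 2. The cause was not tested.

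The early to late balance, whose alternatives were chosen after seeing the data, kept its direction in all 3 comparisons with pseudocounts of 0.5 and 5 and without each library (0.38 to 0.74 between middle-aged and young). Low depth limits genes with few reads, such as Ctsg, Gfi1, Cebpe and Epx, which had as few as 45, 2, 1 and 1 reads in a young library. With 3 libraries per condition, 1 library apart from the others and cell types that move together with age, differences of the granule genes per cell could not be measured.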
